A study of Mus musculus with 5 samples.

Results

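The genes described here encode the machinery that copies DNA and the factors that bring a cell into S phase. They are 43 genes listed by symbol for their function. The rule itself uses no measured value, though the set was proposed with earlier results of these data known. All 43 were found among the 22683 genes of the deposited table. RNA was sequenced from satellite cells, the stem cells of skeletal muscle, which the labels call quiescent and which were sorted by flow cytometry. Wild-type mice gave 2 libraries and mdx mice 3. The mdx strain lacks functional dystrophin through a mutation of Dmd and is used as a model of Duchenne muscular dystrophy. No treatment is given for either genotype. The sources used here give no strain background, age, muscle, sorting gate or number of animals per library. P-values therefore cover only library-to-library spread, part of which may be technical. Values are taken to be normalized counts, that is, reads per gene divided by a size factor per library. This was read from the values, and library totals remain unequal. Each value is given per library, always in the order wild type 1 and 2, then mdx 1, 2 and 3.

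Before a cell can copy its genome, the origin recognition complex, CDC6 and CDT1 load the ring-shaped MCM2 to MCM7 helicase onto origins, a step called licensing, and geminin blocks CDT1 once S phase has begun. CDC45 and the GINS complex then turn the loaded ring into an active helicase, DNA polymerase alpha with primase starts each strand, and polymerases delta and epsilon extend the strands while held by the sliding clamp PCNA. Many of these genes are targets of E2F transcription factors and are transcribed at low levels in resting cells. Adult satellite cells rest outside the cell cycle until injury, and in dystrophic muscle repeated damage calls on them again and again.

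Library totals ran from 12473348 to 16825045 normalized counts. The steps between low values put the depth at an estimated 12.8 to 19.6 M reads. All 9 satellite cell markers were detected in every library, but Sdc4, Cd34, Calcr, Myf5, Vcam1 and Chrdl2 fell in mdx and Itga7 and Cdh15 rose. Markers of other cells of muscle were far higher in mdx: the summed level of 12 endothelial markers was 2916 to 3394 in wild type and 23618 to 31355 in mdx, that of 12 macrophage markers 455 to 657 and 10225 to 15317, and that of 10 markers of fibro-adipogenic progenitors 9293 to 17324 and 80170 to 142439. In the limma fit 11 of 12 endothelial, 9 of 12 macrophage and 9 of 10 fibro-adipogenic markers were called higher, with the endothelial marker Tek called lower. Another 4 of 8 pericyte, 1 of 3 tested lymphocyte (Ptprc, while Cd79a and Trac did not pass) and 2 of 8 myofiber markers were called higher. Emcn, Cldn5, Ptprb, Mrc1, Itgam, C1qa, C1qb and C1qc were among those at 0 throughout wild type. Dmd, the mutated gene, had 11826 and 9266 in wild type and 4642, 4116 and 3700 in mdx. Xist, made by the inactive X chromosome of females, had 30235 and 30176 in wild type and 0, 0 and 12 in mdx, and the Y-linked Ddx3y stood at 9 and 0 in wild type and at 827 to 966 in mdx, so genotype cannot be told apart from sex. What part sex or these other cells had in the values below was not tested. In bulk RNA, a larger share of cells that express a gene cannot be told apart from more RNA per cell.

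The replication genes did not shift together between the genotypes. Of the 43, 41 had 2 or more libraries with a normalized count of 10 or above and were tested. Geminin (Gmnn) and the GINS subunit Gins1 did not pass this filter. In mdx 8 genes rose (Mcm2, Mcm3, Mcm10, Cdt1, Pole, Rfc1, Lig1 and Rrm2), which is 19.5% of those tested, where 14.6% of all 18199 tested genes were called higher. Another 3 fell (Pcna, Pola1 and Slbp), or 7.32%, where 10.3% of all tested genes were called lower. Together, 26.8% of the replication genes passed, against 24.9% of all genes, so the share of calls was close to the background. The remaining 30 did not pass. An unadjusted p under 0.05 was found for 17 of the 41 (41.5%), against 38.1% of all tested genes. With libraries scaled to equal totals, the split was 8 higher and 1 lower, beside 2821 and 1348 of all 18116 genes tested there. Removing mdx 1 left 3 and 1, removing mdx 2 left 3 and 2, and removing mdx 3 left 4 and 1. Calls over all tested genes also varied between these fits, so the changes cannot be read as particular to the replication genes. Fits without wild type 1 or 2 leave a lone wild-type library, so they do not measure the spread between wild-type libraries. Counts by role below are to be read beside the 14.6% and 10.3% of all tested genes.

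The summed level of the 43 genes was 14863 and 14394 in wild type and 12997, 20292 and 13459 in mdx, so the genotypes overlapped. Pcna alone gave 2792 and 3337 of this sum in wild type and 409, 590 and 743 in mdx, and the overlap depends on it. The median log2 fold change over the tested members was 0.55, against 0.13 over all tested genes. Leaving out Mcm10, which was listed at 0 in wild type, it was also 0.55 over 40 genes. Every mdx library lay above both wild-type libraries for 18 genes (43.9%, against 28.2% of all genes) and below both for 6 (14.6%, against 23.8%). All 8 genes called higher were among the 18.

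**Figure D1:**
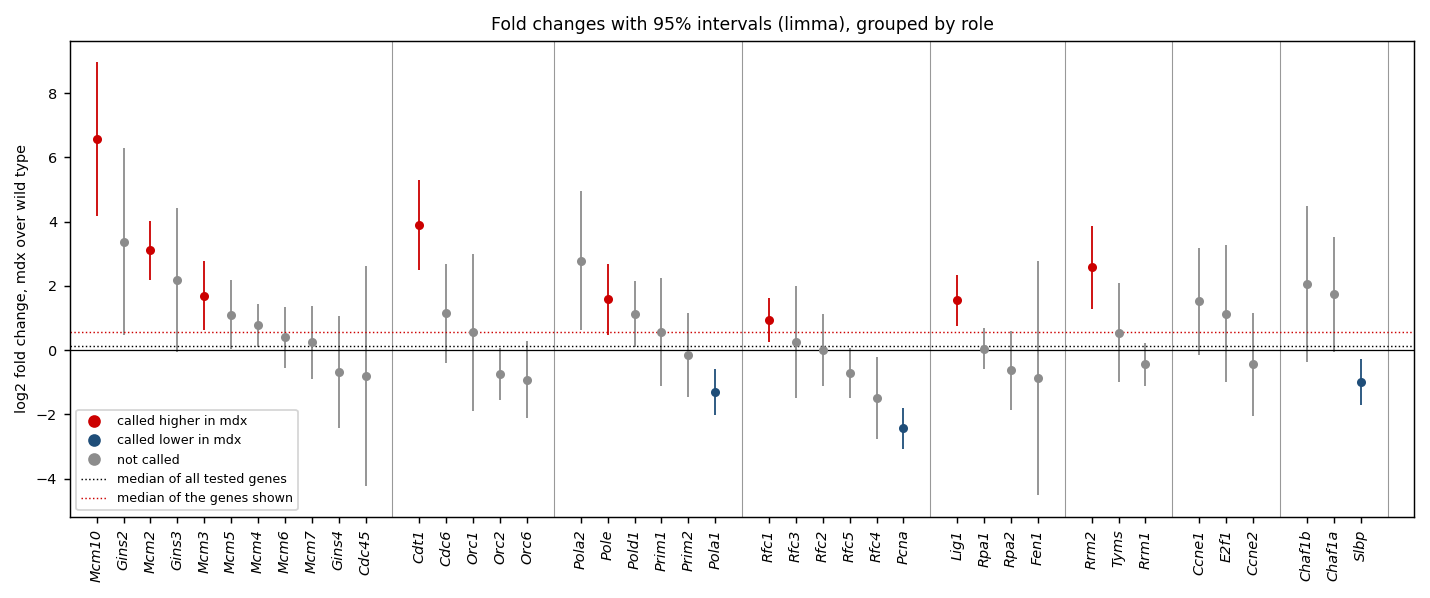
Log2 fold changes (mdx over wild type, y axis) of the 41 tested replication genes with 95% intervals from limma, grouped by role from left to right as helicase, licensing, polymerases and primase, clamp and loader, single strands and Okazaki fragments, nucleotide supply, S-phase entry and chromatin. Red points were called higher (8), blue points called lower (3) and grey points not called (30), and dotted lines mark the medians of the genes shown (0.55) and of all tested genes (0.13).

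Of the 11 tested helicase genes, 3 rose (Mcm2, Mcm3 and Mcm10) and 8 did not pass. Mcm2 (chromosome 6, 88883474 to 88898780, mm10) had normalized counts of 114 and 70 in wild type and 652, 1103 and 668 in mdx. The lowest mdx library was thus several times the highest wild-type library, and Mcm2 rose by 3.10 on the log2 scale (SE 0.41, 95% interval from 2.17 to 4.03, limma adjusted p = 0.0009). Mcm3 (chromosome 1, 20802968 to 20820312) had 534 and 157 in wild type and 871, 1161 and 825 in mdx. Its wild-type libraries lay far apart, and it rose by 1.69 on the log2 scale (SE 0.47, limma adjusted p = 0.0303). It was 2.57 without wild type 1 and 0.82 without wild type 2 (limma adjusted p = 0.0801), and the call also ended without mdx 1, 2 or 3 (limma adjusted p = 0.122, 0.143 and 0.116).

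The other 4 subunits of the ring did not pass. Mcm4 had 751 and 557 in wild type and 1070, 1483 and 862 in mdx, without overlap (log2 fold change 0.78, limma adjusted p = 0.085). Mcm5 had 190 and 325 against 383, 976 and 414, again without overlap (log2 fold change 1.11, limma adjusted p = 0.123). Mcm6 (1068 and 521 against 596, 1455 and 1092) and Mcm7 (604 and 623 against 341, 1416 and 783) overlapped between the genotypes. The interval for Mcm7 ran from −0.91 to 1.39 on the log2 scale and so includes both a fall and a rise of more than 1.5-fold. Calls that Mcm4, Mcm5 and Mcm6 gained when a wild-type library was left out rest on a lone wild-type library and are not counted here.

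The ring holds each MCM subunit in a single copy, so their levels were compared with each other inside each library, as normalized counts per kb of merged exons. In wild type the most abundant of the 6 subunit transcripts stood at 13.97 and 15.42 times the least abundant, which was Mcm2 in both libraries (16.4 and 10.1 per kb). In mdx 1, 2 and 3 this ratio was 3.87, 2.61 and 2.50. By this ratio, which Mcm2 sets in wild type, the 6 subunits were closer to each other in each mdx library than in either wild-type library. Without Mcm2, the levels ran from 41.8 to 155 per kb in wild type 2 and from 77.0 to 298 in mdx 1. On this length, mdx 1 was thus not closer than wild type 2 among the other subunits. The values depend on the length used. With the longest transcript in place of merged exons, an alternative chosen after seeing the data, the ratios were 7.52 and 10.5 in wild type and 2.63, 1.66 and 2.16 in mdx, with Mcm2 again the least abundant in wild type. On merged exons Mcm4 was the most abundant of the 6 in wild type 2 and all mdx libraries, but on the longest transcript Mcm7 was, except in mdx 1 and wild type 1. These ratios are a description of 5 libraries and were not tested.

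**Figure D2:**
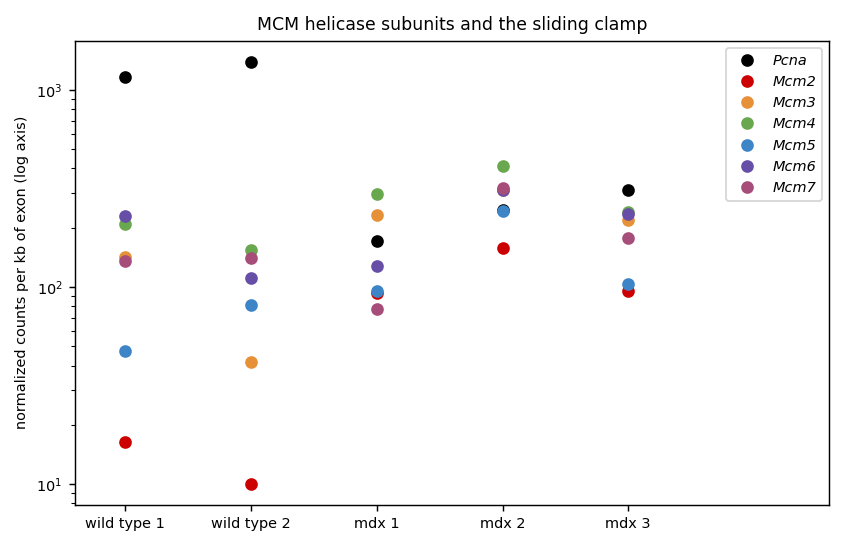
Levels of Pcna and the 6 MCM subunits (colours) in each of the 5 libraries (x axis), as normalized counts per kb of merged exons on a log axis. On this length Pcna stands far above every MCM subunit in wild type (1163 and 1390 per kb) and near them in mdx (170 to 310), and Mcm2 moves from the bottom (16.4 and 10.1) toward the others (93.7 to 159).

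Mcm10 (chromosome 2, 4989714 to 5012791), which encodes a scaffold that helps to activate the loaded helicase, stood at 0 in each wild-type library, against 168, 390 and 100 in mdx. The difference was 6.57 on the log2 scale (SE 1.06, limma adjusted p = 0.0025). That size depends on the pseudocount, being 8.55 with 0.5 and 4.31 with 10. Mcm10 passed the filter on low values through the mdx libraries alone. Its wild-type values of 0 show no spread, so the p-value does not measure variation in wild type. CDC45 and the GINS subunits, which complete the active helicase, were not called. Cdc45 ranged from 28 to 237 in wild type and from 4 to 191 in mdx, so that the spread inside each genotype exceeded any difference between them. Gins2 had 0 and 22 in wild type and 57, 112 and 53 in mdx, and Gins3 had 38 and 6 against 71, 97 and 73. Neither overlapped, and neither passed (limma adjusted p = 0.0866 and 0.141). Each gained a call without the higher of its wild-type libraries, where the lone library left cannot show the wild-type spread. Gins2 overlaps Gse1 on the opposite strand, which stood at 154 and 96 in wild type and at 740 to 1028 in mdx. The sources used here do not give the strand setting of the counting, so reads of these neighbours cannot be told apart. Gins4 had 217 and 200 in wild type and 41, 210 and 242 in mdx, low in mdx 1 alone. Gins1 was at 5 or below in 4 libraries and at 53 in mdx 3.

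The promoters of Mcm2 and Mcm10 are shown because these genes had the largest log2 fold changes among the 3 called helicase genes. They are the 180 bases upstream of the RefSeq start (GRCm38), 5′ to 3′, with capitals for each match to CCAAT, the box bound by the factor NF-Y, and to TTTGAA, an element found in many cell cycle promoters, on either strand. Neither stretch holds an E2F match as defined further on.
Mcm2 (chr6:88898781-88898960, minus strand): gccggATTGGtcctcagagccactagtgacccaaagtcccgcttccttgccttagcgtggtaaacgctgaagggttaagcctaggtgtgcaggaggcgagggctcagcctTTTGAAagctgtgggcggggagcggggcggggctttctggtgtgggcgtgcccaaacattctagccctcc
Mcm10 (chr2:5012792-5012971, minus strand): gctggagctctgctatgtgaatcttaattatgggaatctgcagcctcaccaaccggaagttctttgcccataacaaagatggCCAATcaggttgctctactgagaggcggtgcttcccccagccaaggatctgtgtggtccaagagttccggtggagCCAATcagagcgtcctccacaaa
Mcm2 has a CCAAT match on the reverse strand and a TTTGAA match, and Mcm10 has 2 CCAAT matches on the forward strand in this stretch.

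In the licensing group the loading factor Cdt1 rose, while the subunits of the origin recognition complex did not pass. Cdt1 (chromosome 8, 122568015 to 122573128) had 32 and 16 in wild type and 393, 523 and 244 in mdx. All mdx libraries were far above wild type, with a log2 fold change of 3.91 (SE 0.62, 95% interval 2.51 to 5.30, limma adjusted p = 0.00229). Its inhibitor Gmnn was listed at 0 in all libraries except mdx 3, where it stood at 56. Cdc6, the partner of CDT1 in loading, had 70 and 103 in wild type and 226, 352 and 86 in mdx, where mdx 3 lay between the wild-type libraries (log2 fold change 1.14, limma adjusted p = 0.252). Orc1, the subunit of the origin recognition complex that varies most over the cell cycle, had 85 and 14 against 30, 117 and 41. Orc2 had 722 and 503 in wild type and 267, 413 and 423 in mdx, all below (log2 fold change −0.74, limma adjusted p = 0.159). Nif3l1, which overlaps Orc2 on the opposite strand, was likewise lower, at 501 and 401 against 151, 298 and 343. Orc6 had 514 and 225 in wild type and 270, 167 and 126 in mdx, and overlapped.

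Among the polymerases, the catalytic subunits of alpha and epsilon moved in opposite directions. Pola1 (chromosome X, 93304767 to 93632155), the catalytic subunit of polymerase alpha, had 1414 and 1390 in wild type and 442, 852 and 480 in mdx. It fell by 1.31 on the log2 scale (SE 0.32, limma adjusted p = 0.0176), with every mdx library below both wild-type libraries. The call ended without mdx 1 or mdx 3 (limma adjusted p = 0.0793 and 0.089) and with equal library totals (0.0637). Pole (chromosome 5, 110286306 to 110337474), the catalytic subunit of polymerase epsilon on the leading strand, had 96 and 169 in wild type and 288, 619 and 320 in mdx. It rose by 1.58 on the log2 scale (SE 0.49, limma adjusted p = 0.0454). Pole did not pass when mdx 1, 2 or 3 was left out, nor after correction for transcript length and GC content, where the log2 fold change was 0.79 (limma adjusted p = 0.278).

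The remaining polymerase and primase genes did not pass. Pola2, which encodes the regulatory B subunit of polymerase alpha, had 150 and 10 in wild type and 238, 378 and 276 in mdx. The interval of its log2 fold change, 2.78, ran from 0.62 to 4.94 (limma adjusted p = 0.0623). It passed with a pseudocount of 10 (limma adjusted p = 0.0324), with no filter on low values (0.03) and with a minimum of 50 (0.0472). Pold1, the catalytic subunit of polymerase delta, had 109 and 135 against 319, 280 and 208, with no overlap (log2 fold change 1.11, limma adjusted p = 0.107). The primase genes Prim1 (70 and 61 against 52, 100 and 175) and Prim2 (199 and 109 against 181, 136 and 93) overlapped between the genotypes.

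In the clamp and its loader, 1 of 6 genes rose (Rfc1) and 1 fell (Pcna). The sliding clamp gene Pcna (chromosome 2, 132249162 to 132253314) had 2792 and 3337 in wild type and 409, 590 and 743 in mdx. Every mdx library was far below wild type, and the gene fell by 2.43 on the log2 scale (SE 0.28, 95% interval −3.08 to −1.79, limma adjusted p = 0.000474). Per kb of exon, Pcna stood at 8.35 and 14.4 times the median of the 6 MCM subunits in the wild-type libraries and at 1.52, 0.791 and 1.56 times in mdx 1, 2 and 3. With the longest transcript as length, these ratios were 10.2 and 20.4 in wild type and 1.67, 1.16 and 2.04 in mdx. In wild type Pcna was the most abundant of the 41 genes per kb on either length. In mdx it ranked just after Mcm4 and Mcm3 on merged exons and above both on the longest transcript. A processed copy, Pcna-ps2, could share reads with Pcna. It had 28 and 36 in wild type and 1, 4 and 1 in mdx. How reads were shared between them was not tested.

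The clamp loader is built from the large subunit RFC1 and 4 small subunits. Rfc1 (chromosome 5, 65261850 to 65335670) had 720 and 438 in wild type and 1181, 1214 and 868 in mdx and rose by 0.94 on the log2 scale (SE 0.30, limma adjusted p = 0.049). That call lay just inside the threshold and ended without mdx 1, 2 or 3 (limma adjusted p = 0.159, 0.159 and 0.0805). Without wild type 2 the log2 fold change was 0.58. None of the small subunits passed. Rfc4 had 217 and 246 in wild type and 111, 70 and 67 in mdx, and Rfc5 had 526 and 671 against 305, 487 and 323. In both genes all mdx libraries lay below wild type (log2 fold changes −1.50 and −0.71, limma adjusted p = 0.083 and 0.165). Rfc4 overlaps Eif4a2 on the other strand, a translation factor gene with 12626 and 12495 in wild type and 4388 to 4751 in mdx, whose counts are many times those of Rfc4. Rfc2 (171 and 239 against 138, 194 and 308) and Rfc3 (70 and 147 against 51, 233 and 150) overlapped.

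**Figure D3:**
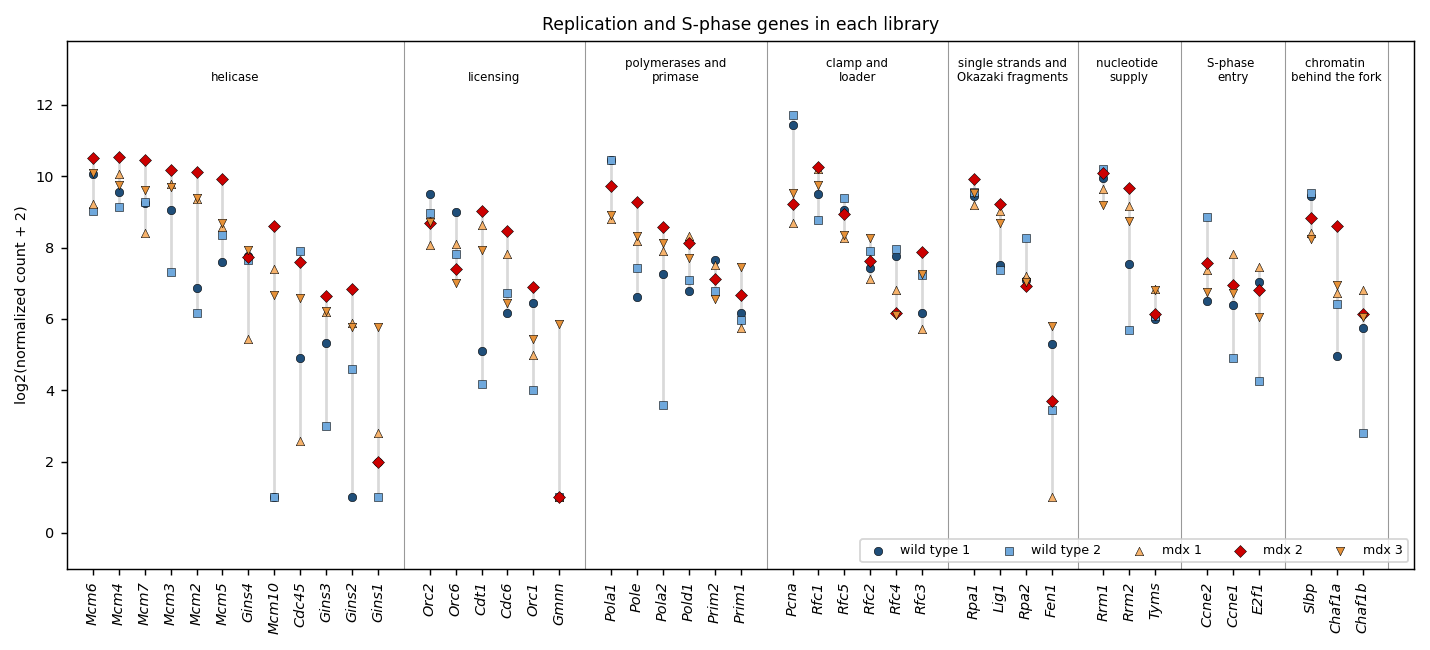
Log2(normalized count + 2) of each of the 43 replication genes (x axis) in the 2 wild-type libraries (blue) and the 3 mdx libraries (orange and red), grouped by role and ordered by mean level inside each group. Blue symbols lie above all mdx symbols for Pcna, Pola1, Slbp, Orc2, Rfc4 and Rfc5, and mdx 2 (red diamonds) is the highest mdx library for 26 of the 41 tested genes.

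DNA ligase 1, which seals Okazaki fragments, was higher in mdx. Lig1 (chromosome 7, 13277313 to 13311425) had 179 and 163 in wild type and 518, 592 and 413 in mdx. The wild-type libraries were close together, and the gene rose by 1.54 on the log2 scale (SE 0.36, limma adjusted p = 0.0139). Without mdx 1 or mdx 2 it did not pass (limma adjusted p = 0.0571 and 0.061). Fen1, the flap nuclease that trims the fragments before ligation, was near the lower end of detection, at 37 and 9 against 0, 11 and 54. Rpa1, the large subunit of the protein that coats single-stranded DNA, had 699 and 748 in wild type and 583, 965 and 735 in mdx. Its interval for the log2 fold change, −0.60 to 0.69, was among the narrowest of the set and bounds any difference at about that size. Rpa2 had 135 and 305 in wild type and 145, 119 and 128 in mdx (log2 fold change −0.63, limma adjusted p = 0.42).

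In the supply of nucleotides, the subunits of ribonucleotide reductase differed. Rrm2 (chromosome 12, 24708241 to 24714146), the small subunit that cycling cells make for S phase, had 183 and 50 in wild type and 569, 810 and 429 in mdx. It rose by 2.58 on the log2 scale (SE 0.57, limma adjusted p = 0.0114), by 3.49 without wild type 1 and by 1.66 without wild type 2. Leaving out mdx 1, 2 or 3 ended the call (limma adjusted p = 0.0744, 0.0804 and 0.0607). Rrm1, the large subunit, had 986 and 1188 in wild type and 799, 1082 and 584 in mdx, with a log2 fold change of −0.44 (interval −1.12 to 0.23, limma adjusted p = 0.305). Tyms, encoding thymidylate synthase, had 62 and 66 against 112, 68 and 110 (log2 fold change 0.55, limma adjusted p = 0.589).

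None of the 3 genes of S-phase entry passed in the limma fit, and 0 of the 3 had an unadjusted p under 0.05. Ccne2, encoding cyclin E2 and the most abundant of them by mean, had 88 and 463 in wild type and 164, 188 and 107 in mdx, all of them between the wild-type libraries. Ccne1, encoding cyclin E1, had 82 and 28 against 224, 122 and 104, without overlap (log2 fold change 1.52, limma adjusted p = 0.164). E2f1, an activating factor of the E2F family, had 130 and 17 in wild type and 172, 111 and 65 in mdx. Ccne2 had a log2 fold change of −1.62 without wild type 1 and of 0.75 without wild type 2. Without wild type 2 the direction also turned for E2f1 (−0.27). Each of these fits leaves a lone wild-type library, so no call is drawn from them.

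Of the genes that serve chromatin at the fork, Slbp (chromosome 5, 33634952 to 33652574), which encodes the protein that binds the hairpin of histone mRNAs, had 698 and 738 in wild type and 338, 449 and 299 in mdx. It fell by 1.0 on the log2 scale (SE 0.32, limma adjusted p = 0.0462). Leaving out mdx 1, 2 or 3 ended that call, and so did 6 of the 9 alternative settings that leave out no library. The genes of chromatin assembly factor 1, which places new histones behind the fork, did not pass. Chaf1a had 29 and 83 in wild type and 103, 386 and 121 in mdx, and Chaf1b had 52 and 5 against 110, 68 and 64. In both, all mdx libraries lay above wild type (log2 fold changes 1.74 and 2.05, limma adjusted p = 0.143 and 0.196). Each gained a call when its higher wild-type library was left out, a fit in which the wild-type spread is not measured.

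Of the 11 called genes, Mcm2, Mcm10, Cdt1 and Pcna kept their call in each alternative setting that held both wild-type libraries, including the removal of each mdx library in turn. Among these 4, the lowest log2 fold change for Mcm2 over all 14 alternatives was 2.76 and the highest for Pcna was −2.03. Calls in fits with a lone wild-type library are not counted here, and Mcm10 was at 0 in both wild-type libraries. All 11 kept their direction in every alternative.

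The mdx libraries did not carry the same level of replication transcripts. Of the 41 tested genes, 26 (63.4%) were highest in mdx 2 among the mdx libraries, against 34.9% of all tested genes. Only 2 (4.88%) were lowest there, against 30.5% of all tested genes. Compared with the wild-type mean, the median log2 difference over the 41 genes was 0.293 in mdx 1, 1.182 in mdx 2 and 0.553 in mdx 3, while over all tested genes it was 0.17, 0.18 and 0.18. The 8 markers of dividing cells summed to 3800, 9687 and 3940 in the same libraries, and Mki67, the standard marker of cycling cells, stood at 2297, 5480 and 2337. The sums of macrophage (12285, 15317 and 10225), lymphocyte (608, 807 and 587) and myofiber markers (41093, 66247 and 26229) were also highest in mdx 2. Most of the lymphocyte sum was Ptprc (518, 668 and 521). The myofiber sum was highest there through Ttn alone (64744 there). Acta1, Ckm, Myh1, Myh4, Tnnt3 and Mylpf were instead lowest in mdx 2, and Myh2 lay between the other mdx libraries. Endothelial markers (31355, 27109 and 23618) were not. The sums of satellite cell (40189, 34200 and 48809), fibro-adipogenic (142439, 80170 and 98110) and pericyte markers (23207, 19658 and 27106) were lowest there. Single pericyte markers were mixed: Notch3, Acta2, Rgs5 and Abcc9 were lowest in mdx 2, Myh11, Cspg4 and Kcnj8 were highest there, and Pdgfrb lay between. What part other cells had in the high values of mdx 2 was not tested.

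**Figure D4:**
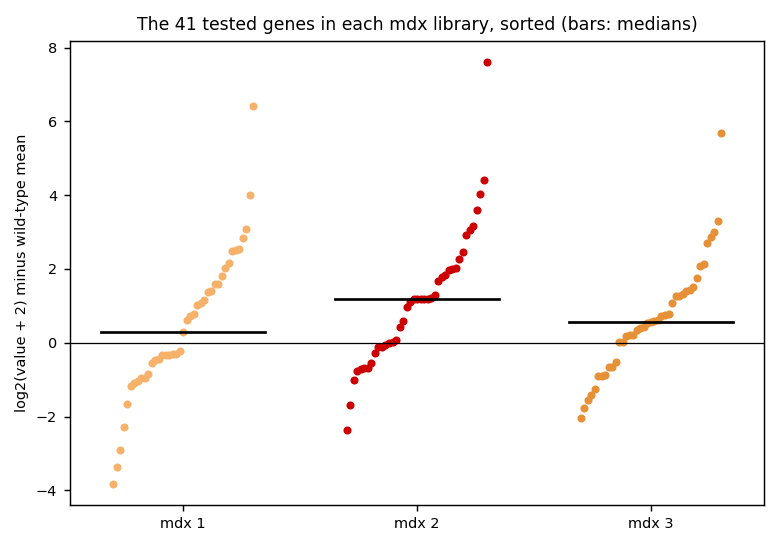
Difference of log2(normalized count + 2) from the wild-type mean (y axis) for the 41 tested replication genes in mdx 1, mdx 2 and mdx 3, sorted inside each library, with black bars at the medians. The medians are 0.293, 1.182 and 0.553, and 21, 28 and 30 of the 41 genes lie above 0.

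Of 8 markers of dividing cells, most of which act in mitosis, 7 rose in mdx (Mki67, Top2a, Cdk1, Birc5, Aurkb, Plk1 and Cenpf), with a median log2 fold change of 4.44. The eighth, Ccnb1, stood at 0 in wild type and mdx 1, against 153 and 33 in mdx 2 and 3. Their summed level was 204 and 159 in wild type. The summed level of the replication genes in the same libraries was 14863 and 14394, a sum over more genes that includes Pcna (2792 and 3337) and Pola1 (1414 and 1390). Other replication genes were low or absent in wild type as well, such as Cdt1 (32 and 16), Mcm10 (0 and 0) and Gmnn (0 and 0). The sums are therefore not comparable per gene. No test of the difference between the lists was made.

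Of 95 tested genes in 6 further lists of the replication pathway, 13 rose (13.7%, against 14.6% of all tested genes), 7 fell (7.37%, against 10.3%) and 75 did not pass, so that calls were no more frequent than in the background, with a median log2 fold change of 0.23. Of 35 other fork and origin factors, 4 rose (Top2a, Dna2, Cdc7 and Timeless) and 1 fell (Pole3). Top2a, the topoisomerase that untangles copied DNA, had 73 and 120 in wild type and 882, 2356 and 736 in mdx (log2 fold change 3.59, limma adjusted p = 0.00136). Dna2, a nuclease and helicase of Okazaki fragments, went from 0 and 2 to 163, 109 and 83 (limma adjusted p = 0.00684). Dna2 passed the filter on low values through the mdx libraries alone. Pole3, a small subunit of polymerase epsilon, fell from 665 and 580 to 186, 298 and 207 (log2 fold change −1.45, limma adjusted p = 0.0205), the opposite of the catalytic subunit Pole. Pole3 did not pass without mdx 1 or mdx 3 (limma adjusted p = 0.0634 and 0.0716).

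Of 12 enzymes of nucleotide supply outside the set, 1 rose (Samhd1) and 4 fell (Rrm2b, Shmt1, Mthfd1 and Ctps). Rrm2b, the reductase subunit used outside S phase, fell from 359 and 605 to 151, 145 and 151 (log2 fold change −1.63, limma adjusted p = 0.023), while Rrm2 rose. The fall of Rrm2b did not pass without mdx 1, 2 or 3 (limma adjusted p = 0.062, 0.0649 and 0.068). Shmt1, an enzyme of the thymidylate cycle, fell from 1055 and 767 to 441, 465 and 269 (limma adjusted p = 0.0296) and did not pass without mdx 1, 2 or 3. Samhd1, which degrades nucleotides and is abundant in resting and myeloid cells, rose from 346 and 230 to 829, 1211 and 1004 (log2 fold change 1.82, limma adjusted p = 0.00331). Macrophage, endothelial and fibro-adipogenic markers were all higher in the mdx libraries, and what part such cells had in the rise of Samhd1 was not tested. With libraries scaled to equal totals, the count of pathway genes called lower went from 7 to 2.

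Among 17 regulators of the E2F and retinoblastoma families, 3 rose and 1, E2f5, fell. E2f7, a repressor, stood at 0 in each wild-type library, against 116, 162 and 90 in mdx (limma adjusted p = 0.00429), and its relative E2f8 at 0 and at 54, 290 and 110 (0.00663). E2f7 and E2f8 passed the filter on low values through mdx alone, and their wild-type values of 0 show no spread. Rbl1, encoding the pocket protein p107, went from 12 and 0 to 459, 746 and 250 (limma adjusted p = 0.00186). Of 11 S-phase kinases and ubiquitin ligase genes, 2 rose. Ddb1, an adaptor of the ligase that destroys CDT1 on chromatin, rose from 5411 and 4292 to 6232, 8722 and 8536 (log2 fold change 0.68, limma adjusted p = 0.0361). After length and GC correction its log2 fold change was 0.16 (limma adjusted p = 0.561), and it did not pass without mdx 2 or mdx 3 (0.138 and 0.141). Dtl, the subunit that picks CDT1 for that ligase, went from 53 and 7 to 108, 550 and 230 (limma adjusted p = 0.0318), and did not pass without mdx 1, 2 or 3 (0.067, 0.153 and 0.134).

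Of 12 genes of chromatin replication, 3 rose (Uhrf1, Dnmt1 and Mms22l) and 1 fell (Nasp). Uhrf1, which recognizes hemimethylated DNA behind the fork, went from 37 and 0 to 250, 813 and 421 (limma adjusted p = 0.0085), and the maintenance methyltransferase gene Dnmt1 from 643 and 599 to 1130, 2243 and 1407 (log2 fold change 1.30, 0.0145). Neither passed without mdx 2 (limma adjusted p = 0.0794 for Uhrf1 and 0.052 for Dnmt1) or mdx 3 (0.0777 and 0.0725), nor Uhrf1 without mdx 1 (0.0578). After length and GC correction the log2 fold change of Dnmt1 was 0.47 (limma adjusted p = 0.287). Nasp, a histone chaperone gene, fell from 2344 and 3687 to 1028, 994 and 547 (log2 fold change −1.83, limma adjusted p = 0.00414). Of 8 tested replication checkpoint genes limma called 0, and 1 had an unadjusted p under 0.05. The kinase gene Atr, the most abundant of them, had 1512 and 1002 in wild type and 1019, 676 and 892 in mdx. Atr did not pass (log2 fold change −0.53, limma adjusted p = 0.2). Corrected for length and GC content, it passed as lower (log2 fold change −1.04, limma adjusted p = 0.0365).

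**Figure D5:**
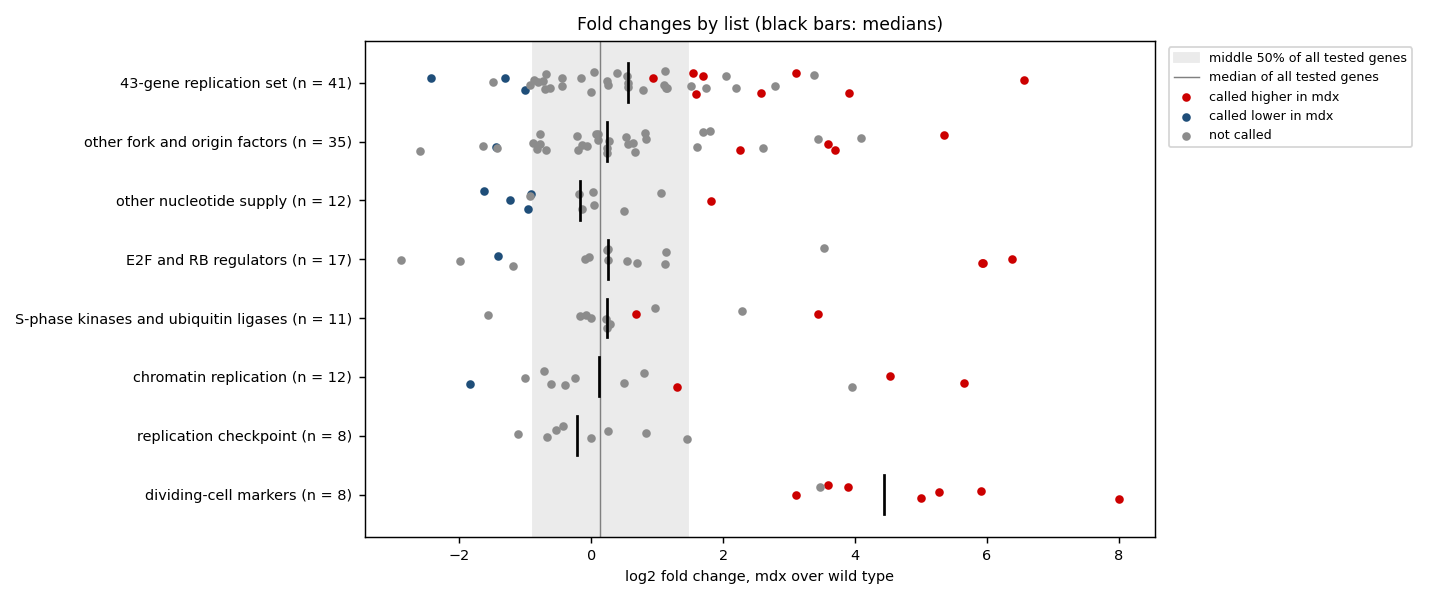
Log2 fold changes (mdx over wild type, x axis) of single genes in the replication set, the 6 other pathway lists and the dividing-cell markers (rows, with the number of tested genes), coloured by call, with black bars at the list medians. The grey band holds the middle 50% of all tested genes, and the medians run from −0.21 (checkpoint) to 0.55 (replication set) and 4.44 (dividing cells).

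The promoters of the replication genes were searched for E2F matches. RefSeq windows of 300 bases (250 before and 50 after the start, GRCm38) were found for 34 of the 43 genes, and where a gene had several the first listed was used. An E2F match was TTTCCCGC, TTTCGCGC, TTTGCCGC or TTTGGCGC on either strand, with overlapping matches joined. Such a match was present in 11 of the 34 windows (32.4%), against 2.32% of 27025 windows of the same length for all genes. CCAAT, on either strand, was present in 22 of 34 (64.7%, against 37.9%), and TTTGAA in 4 of 34 (11.8%, against 18.1%). An E2F match was present in 2 of 7 windows of genes called higher, 1 of 3 of genes called lower and 8 of 24 of genes not called. With so few windows, whether matches follow the calls cannot be told. The counts are of matching letters and are given as a description.

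The match nearest the start is shown for all 11 genes because genes that rose, fell and did not pass share it. Each stretch is printed 5′ to 3′ in the direction of the gene, with the match in capitals.
Cdt1 (chr8:122568037-122568064, plus strand): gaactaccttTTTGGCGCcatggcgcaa
Mcm3 (chr1:20820276-20820303, minus strand): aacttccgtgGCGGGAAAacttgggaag
Pola1 (chrX:93632276-93632303, minus strand): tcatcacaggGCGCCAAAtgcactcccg
Mcm5 (chr8:75109346-75109377, plus strand): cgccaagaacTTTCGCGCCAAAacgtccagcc
Mcm6 (chr1:128359735-128359762, minus strand): attggacgggTTTGGCGCgaagtagctc
Mcm7 (chr5:138171850-138171877, minus strand): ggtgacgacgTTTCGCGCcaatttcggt
Gins3 (chr8:95633508-95633535, plus strand): cgagtgcggcGCGGGAAAgcgagtttga
Cdc6 (chr11:98908003-98908030, plus strand): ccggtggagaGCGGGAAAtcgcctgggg
Orc1 (chr4:108579417-108579444, plus strand): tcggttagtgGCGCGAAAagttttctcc
Pold1 (chr7:44548766-44548786, minus strand): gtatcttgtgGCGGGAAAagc
Rfc3 (chr5:151651191-151651218, minus strand): tttcgcgctcGCGGGAAAactctactgt
Cdt1 and Mcm3 were called higher and Pola1 lower, and the other 8 did not pass. In Cdt1, Mcm3, Mcm7, Pold1 and Rfc3 the match shown begins at or after the start, and in the others before it. Mcm3, Mcm6, Mcm7 and Rfc3 hold 2 matches each. The other match of Rfc3 begins 10 bases before the start and lies in the small letters of its stretch.

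Pcna, the gene with the largest fall, had no E2F match by this definition in its window and a CCAAT match on the reverse strand that begins 87 bases before the RefSeq start.
Pcna (chr2:132253253-132253277, minus strand): cacgggtacgATTGGtccttgagga
A reverse CCAAT match thus occurs in the Pcna and the Mcm2 windows, genes that moved in opposite directions.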

How the data were processed

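RNA from sorted satellite cells of 2 wild-type and 3 mdx libraries was analysed. Per the labels' protocols, a stranded total RNA kit for low cell input was used. According to the submitters' processing notes, the tools included STAR 2.6.1d, featureCounts 1.6.3, DESeq2 1.18.1 and mm10, without their roles or settings. The deposited values are whole numbers treated here as a score, the normalized count: the authors divided reads per gene by a size factor per library and rounded, as read from the values (ratios to gene means had a median of 1.03 to 1.04 in all columns, and in mdx 1, 6 of the whole numbers from 1 to 30 never occur). Raw counts could not be restored.

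Values were tested as log2(normalized count + 2) with limma 3.58.1 in R 4.3.3 (genotype as the only term, empirical Bayes with mean trend, robust), fitted on all 18199 genes with at least 10 in at least 2 libraries. P-values are two-sided and adjusted (Benjamini-Hochberg) across these genes, with a threshold of 0.05. A fold change is on the log2(value + pseudocount) scale and understates changes of low genes. Differences are relative to the scaling, under which the median log2 fold change of all tested genes was 0.13. The fit was tested on simulated data. Merged exon length, and length and GC content of the longest transcript, came from GENCODE M21, which held 22649 of the 22683 genes.

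The replication genes, pathway lists, marker lists and test settings were chosen with earlier results of these data known. Values per library are given for every called member, for the most abundant of a role with none called, and for up to 3 called genes per pathway list. Other members are described by role, with their values. Alternatives were pseudocounts of 0.5 and 10, no filter or a minimum of 50, equal library totals, quantile normalization, correction for length and GC content, no trend and no robust step, a replicate block, and leaving out each library.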

Additional observations from a re-analysis of the deposited data

How the results depend on the processing

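With equal library totals, 1 replication gene was called lower (3 in the reported fit) and 2 pathway genes (7 in the reported fit). After length and GC correction 1769 of all genes were called higher and 1978 lower (2659 and 1868 as reported), and 5 replication genes higher (8 as reported). Without trend and robust steps 1150 of all genes were called lower, 4 replication genes higher and 1 lower, and 8 pathway genes higher and 1 lower. Same-numbered libraries share only a number (correlation of deviations −0.014 and −0.017), and a fit with a replicate block called 1163 genes higher and 860 lower, 4 replication genes higher and 1 lower, and 4 pathway genes higher and 1 lower. With 1 library left out, which in wild type leaves a lone library assumed to vary like the mdx libraries, 1450 to 3308 genes were called higher and 1112 to 1853 lower, 3 to 14 replication genes higher and 1 to 3 lower, and 6 to 24 pathway genes higher and 1 to 7 lower. The 14 and 24 came without wild type 1. The cause was not tested. The median log2 fold change of the replication genes stayed between 0.30 and 0.80. That of all tested genes was 0.32 with equal totals, 0.0001 with quantile normalization and −0.033 after length and GC correction, against 0.13. Rounded low values and 2 wild-type libraries limit what can be said of genes such as Gins1, Gmnn and Fen1.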

Other observations

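Among the 41 tested replication genes, the median length of the longest transcript was 3462.5 bases for the 8 called higher, 2922 for the 3 called lower and 2970 for all tested genes, and the median GC content was 51.2%, 44.4% and 49.0%. Across the 41 genes, the log2 fold change correlated with log2 transcript length at Pearson's r = 0.33, with GC content at r = 0.39 and with log2 mean level at r = −0.36. These are descriptions across genes of the same 5 libraries, which share library effects of length and base composition, and genes are not independent replicates. The median SD between wild-type libraries was 0.54 on the log2 scale for the replication genes and 0.45 for all tested genes. In mdx it was 0.47 and 0.53, and against 4794 genes in the range of the middle 21 members, 0.47 and 0.46.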
